A study of Sus scrofa with 72 samples.

Results

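TLR4, the gene for toll-like receptor 4, was read by 9 of the 47845 probe sets on the porcine Snowball expression array, all of those to which the platform annotation gives the symbol TLR4. The gene was chosen because earlier readings of these same arrays had shown it higher in adipogenic induction medium (AIM) than in complete culture medium (CCM) on day 1, with 1 probe set running the other way. The day 1 values are therefore given as a description without a test, and the tests below use other arrays or other comparisons. The 9 probe sets read the same gene in the same RNA and are not replicates of each other. Of the 9, 7 passed the filter on dim and invariant probe sets and were tested among 18335 probe sets in all, and SNOWBALL_041813_st and SNOWBALL_043140_st did not pass it.

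The cells were porcine synovial mesenchymal stem cells (SMSCs), the stromal cells of the joint lining that can be driven to form fat cells. They came from the adipose synovium of the infrapatellar fat pad (FP) or from the fibrous synovium of the joint capsule (FS) of male piglets, 59 days of age, of the breeds Angeln Saddleback (AS) and German Landrace (DL), and were used at passage 3. All groups shared this origin: for each breed and tissue the cells of 3 pigs were pooled, and each pool was grown in 2 cultures. CCM, the control, was high-glucose DMEM with fetal bovine serum and was sampled on day 0 and then alongside AIM, a commercial adipogenesis kit (StemPro), on days 1, 4, 7 and 14. This gave 36 groups of 2 arrays, 72 in all. Because a breed and tissue was represented by 1 pool, the p-values speak to the spread between cultures grown from one and the same pool, and the spread between animals was not measured.

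Of the 72 arrays, 4 were left out: the AIM and CCM arrays of AS FP day 7 replicate 2, DL FP day 0 replicate 2, and DL FS CCM day 1 replicate 2. After each probe set was centred on its mean, these 4 arrays had median correlations of -0.50, -0.53, 0.35 and 0.24 with the 3 used arrays that shared their tissue, medium and day, against a lowest value of 0.46 and a median of 0.65 among the used arrays. Their TLR4 levels also differed from those of their groups. On the probe set SNOWBALL_000103_s_st the DL FP day 0 array stood at 3.57 and the DL FS CCM day 1 array at 5.79, and the AS FP day 7 arrays stood at 6.69 in AIM and 7.50 in CCM. All values are log2 levels summarised by the authors with RMA (robust multi-array average). Results come from the 68 used arrays unless stated. For some results that rest on these groups, values with all 72 arrays as labelled follow. The others are given with the 68 arrays only.

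Toll-like receptor 4 is the cell-surface receptor for bacterial lipopolysaccharide. LBP and CD14 pass the ligand to the receptor, which binds it together with its co-receptor LY96 (MD-2) and signals through the adaptors MYD88 and TICAM1 to NF-kB and interferon regulatory factors. The receptor is best known from macrophages, but stromal cells and fat cells also carry it, and in adipose tissue it is studied for its response to saturated fatty acids and for the inflammatory signals that this receptor sets off.

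SNOWBALL_000103_s_st, which had the highest mean of the TLR4 probe sets, was taken as the reference probe set. Its level was lowest in CCM on day 1 and highest in AIM on day 7. On the 7 used CCM day 1 arrays it stood at 2.81, 2.88, 3.05, 3.29, 3.81, 3.92 and 4.14. Of these, 3 lay below the mean of the background control probe sets of the same array, so the signal there was not above background. The 8 AIM day 1 arrays stood at 6.22 to 6.91 with a median of 6.58. The 7 day 0 arrays lay between them at 5.26 to 6.44, with a median of 5.42.

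From day 4 on, the reference probe set was high in both media. In CCM its day 4 arrays stood at 6.39 to 7.32 (median 6.71), its day 7 arrays at 6.35 to 7.24 (median 6.78) and its day 14 arrays at 6.55 to 7.42 (median 7.02). In AIM the corresponding arrays stood at 6.96 to 7.87 (median 7.60), 7.07 to 7.93 (median 7.60) and 7.24 to 7.77 (median 7.49). The AIM arrays lay higher in the middle, but the arrays of the media overlapped on each of these days.

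Ordered by mean level, the 9 conditions ran from AIM day 7 (7.59 ± 0.29, SD, n = 7) through AIM day 4 (7.49 ± 0.30, n = 8), AIM day 14 (7.47 ± 0.16, n = 8), CCM day 14 (7.03 ± 0.33, n = 8), CCM day 7 (6.78 ± 0.27, n = 7), CCM day 4 (6.74 ± 0.35, n = 8), AIM day 1 (6.54 ± 0.24, n = 8) and CCM day 0 (5.61 ± 0.42, n = 7) to CCM day 1 (3.42 ± 0.54, n = 7). The used arrays of each condition overlapped with those of its neighbour in this order except for CCM day 0 and CCM day 1, which were separate. This separation rests on the left-out arrays. The left-out DL FP day 0 array, at 3.57, lay within the range of the used CCM day 1 arrays. The left-out DL FS CCM day 1 array lay within the range of the used day 0 arrays. The array-by-array plot of the reference probe set shows this order. In these bulk samples, fewer cells carrying the transcript and less of it per cell cannot be told apart.

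**Figure D1:**
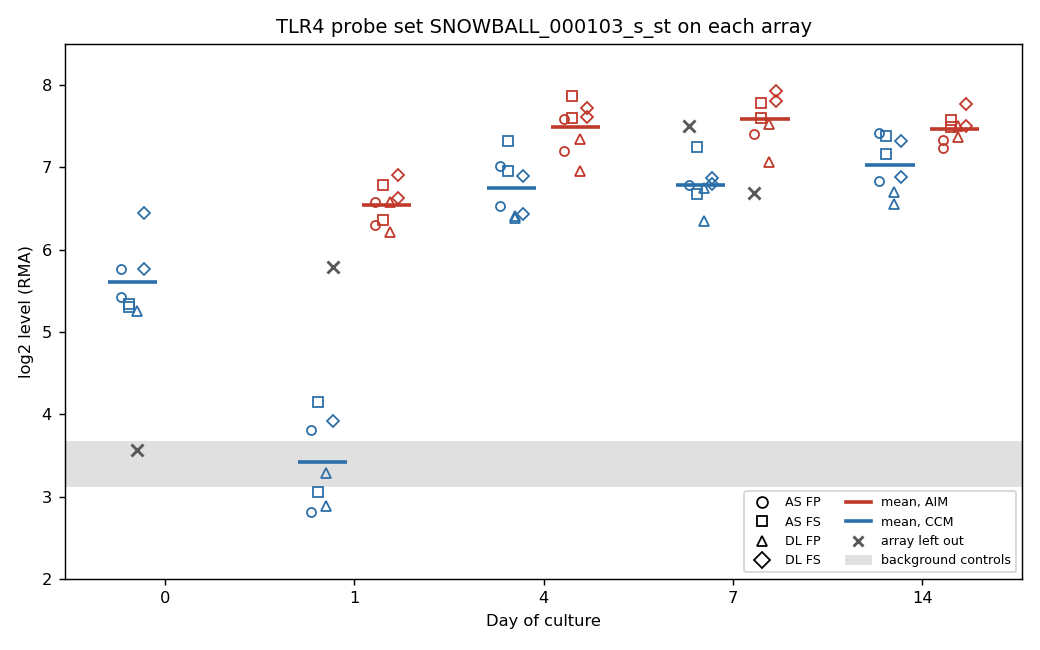
Log2 level of TLR4 on the reference probe set SNOWBALL_000103_s_st (y axis) in each array by day (x axis, evenly spaced categories) and medium, with the pools marked, lines at the condition means and the 4 arrays that were left out drawn apart. The used CCM day 1 arrays lie at 2.81 to 4.14, below every used array of every other condition.

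The other probe sets fell into 3 kinds. SNOWBALL_000104_s_st, SNOWBALL_000105_st, SNOWBALL_000107_st, SNOWBALL_003835_s_st and SNOWBALL_022981_s_st followed the reference: over the 68 arrays the 15 pairs among these 6 probe sets correlated with r from 0.75 to 0.98. SNOWBALL_042311_st did not, with r from -0.33 to -0.14 against the 6. SNOWBALL_041813_st and SNOWBALL_043140_st lay below the background controls on 68 of 68 arrays and had r of 0.21 and 0.14 with the reference. These correlations describe arrays that share pools, days and array processing, and no p is given for them.

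On day 1, the time that chose the gene, the mean AIM level lay above the mean CCM level on 6 of the 7 tested probe sets. The fitted difference of AIM minus CCM was 3.06 for the reference probe set, 2.80 for SNOWBALL_000107_st, 2.17 for SNOWBALL_003835_s_st, 1.58 for SNOWBALL_000104_s_st, 1.45 for SNOWBALL_022981_s_st and 1.30 for SNOWBALL_000105_st. It was -0.72 for SNOWBALL_042311_st. On 3 of the 7 CCM arrays for the reference, 2 for SNOWBALL_000107_st and 5 for SNOWBALL_003835_s_st the level lay below the background controls. The size of these 3 differences is therefore uncertain. For SNOWBALL_000103_s_st, SNOWBALL_000107_st, SNOWBALL_003835_s_st and SNOWBALL_022981_s_st every used AIM array was above every used CCM array. This pattern was held by 4.83% of all tested probe sets, and for the other 3 TLR4 probe sets the media overlapped. In that comparison 10.4% of tested probe sets passed the threshold as higher in AIM and 17.6% as lower.

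The day 1 difference of the reference probe set had the same direction in all 4 pools. It was 3.13 in AS FP, 2.97 in AS FS, 3.31 in DL FP and 2.85 in DL FS, where CCM was represented by 1 array. With all 72 arrays as labelled, the DL FS difference was 1.91, and the average over pools was 2.83 for the reference probe set and -0.46 for SNOWBALL_042311_st.

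Set against day 0, the reference probe set was lower in CCM on day 1 and higher in AIM. As descriptions, CCM day 1 minus day 0 was -2.08 and AIM day 1 minus CCM day 0 was 0.97. All 6 concordant probe sets were lower in CCM on day 1 than on day 0, from -0.80 for SNOWBALL_022981_s_st to the value of the reference. Between day 1 and day 4 the reference level in CCM went up again by 3.26, and in AIM it was 0.94 higher on day 4 than on day 1. With all 72 arrays as labelled, the mean change from day 0 to day 1 in CCM was -1.64. On these arrays AIM day 1 minus day 0 was 1.19 and CCM day 4 minus day 1 was 3.03.

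The 5 other concordant probe sets had the same low point. SNOWBALL_000107_st stood at 4.76 to 6.31 (median 5.29) on day 0, at 2.68 to 4.02 (median 3.60) in CCM on day 1 and at 5.91 to 6.71 (median 6.39) in AIM on day 1. SNOWBALL_003835_s_st stood at 3.91 to 5.22, 2.37 to 3.46 and 5.06 to 5.52 in these conditions, and 5 of its 7 CCM day 1 arrays lay below the background controls. SNOWBALL_022981_s_st stood at 4.47 to 6.01, 3.75 to 4.74 and 5.13 to 6.18. Among the used arrays these 3 kept the media apart on day 1, as did the reference.

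SNOWBALL_000104_s_st and SNOWBALL_000105_st were more scattered in CCM on day 1. SNOWBALL_000104_s_st ran from 2.64 to 5.17 there (median 4.00) and from 4.60 to 6.09 in AIM (median 5.25), and SNOWBALL_000105_st from 2.87 to 4.95 (median 4.19) and from 4.84 to 5.85 (median 5.54). Their day 1 differences varied accordingly between pools, from 0.37 to 3.03 and from 0.77 to 1.93, all 4 pools of each lying above 0.

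**Figure D2:**
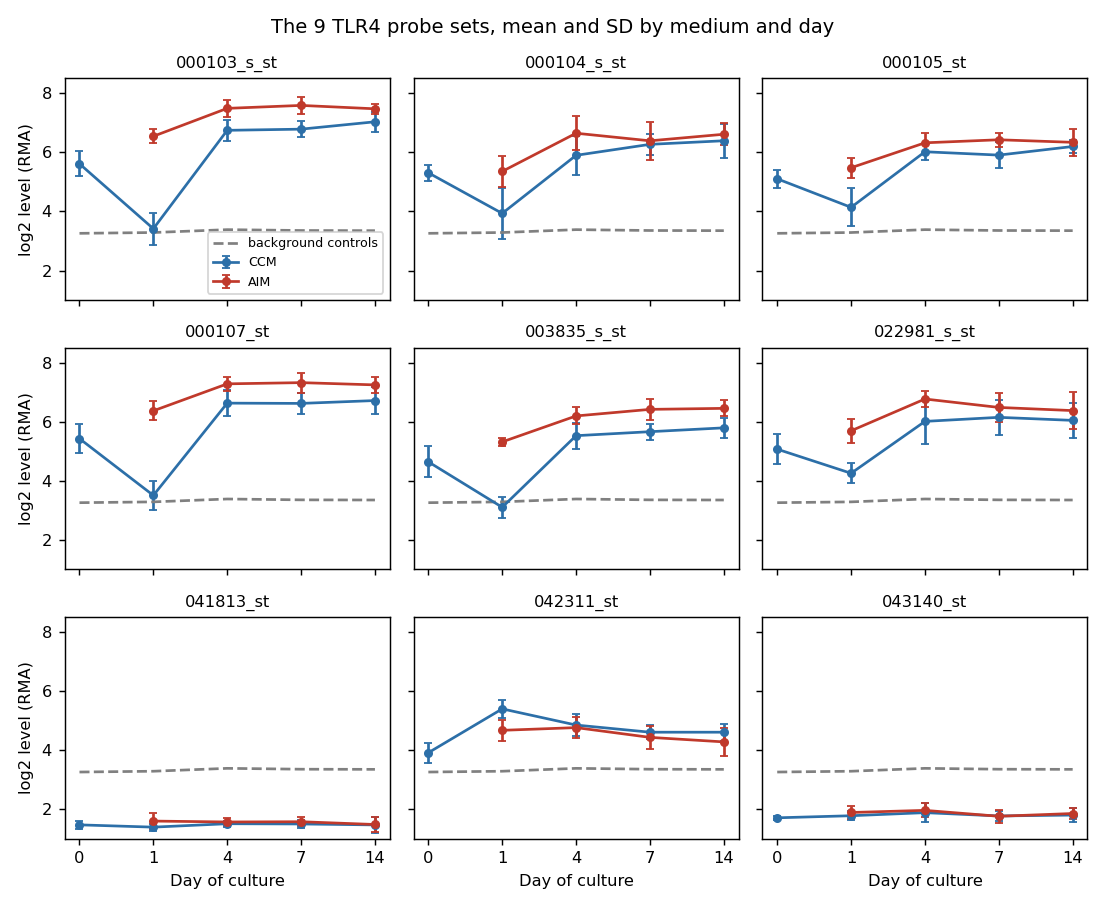
Mean log2 level (y axis) by day (x axis, evenly spaced categories) for each of the 9 TLR4 probe sets in AIM and CCM, with 1 panel a probe set, bars giving the SD over 7 or 8 arrays and dashed lines the mean of the background controls. In CCM, 6 probe sets dip on day 1, SNOWBALL_042311_st peaks there at 5.40, and the 2 dim probe sets stay below the background controls.

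On days 4, 7 and 14, TLR4 was higher in AIM on the reference probe set and on 2 of the 5 probe sets that follow it. By limma with Benjamini-Hochberg adjustment over the 18335 probe sets and a threshold of 0.01, 4 of the 7 probe sets passed as higher in AIM on day 4, 3 on day 7 and 3 on day 14, against 19.6%, 17.7% and 20.9% of all tested probe sets. The 3 that passed on each day were SNOWBALL_000103_s_st, SNOWBALL_000107_st and SNOWBALL_003835_s_st, and SNOWBALL_022981_s_st passed on day 4. In limma 0 of 7 passed as lower on any of these days, with 1 of the 21 tests, SNOWBALL_042311_st on day 14, below 0 at an unadjusted p under 0.05. The shares of all tested probe sets that were lower were 29.5%, 27.4% and 27.7%.

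For the reference probe set, AIM minus CCM was 0.74 ± 0.143 (SE) on day 4 (1.67-fold, adjusted p = 2.52e-05, limma), with a 95% interval of 0.45 to 1.03. On day 7 it was 0.78 ± 0.160 (adjusted p = 6.95e-05, limma) with an interval of 0.46 to 1.10, and on day 14 it was 0.44 ± 0.143 (adjusted p = 0.00827, limma) with an interval of 0.15 to 0.73. All 4 pools lay above 0 on each day, at 0.60 to 1.00 on day 4, 0.62 to 1.03 on day 7 and 0.16 to 0.81 on day 14. The day 14 value was close to the threshold: without any 1 of 7 of the 8 culture lines (all but AS FP replicate 1) it no longer passed, while the day 4 and day 7 differences passed without each of the 8 lines. With all 72 arrays as labelled, the day 7 difference was 0.60 (adjusted p = 0.0163, limma) and the day 14 difference 0.44 (adjusted p = 0.0707, limma), and the count of passing probe sets was 4 on day 4 and 0 on days 7 and 14.

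SNOWBALL_000107_st and SNOWBALL_003835_s_st gave differences close to those of the reference. For SNOWBALL_000107_st they were 0.65, 0.68 and 0.53 on days 4, 7 and 14, and for SNOWBALL_003835_s_st 0.67, 0.74 and 0.66, with adjusted p from 0.000495 to 0.00397 (limma). SNOWBALL_022981_s_st differed by 0.76 on day 4 (adjusted p = 0.00251, limma) and by 0.38 and 0.33 on days 7 and 14 (adjusted p = 0.188 and 0.193). This day 4 call rested on single culture lines, since its adjusted p rose to 0.0289 without AS FP replicate 2, to 0.0280 without DL FP replicate 1 and to 0.0187 without DL FS replicate 1.

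The remaining concordant probe sets passed on no day from day 4 on. SNOWBALL_000104_s_st differed by 0.75, 0.06 and 0.22 (adjusted p = 0.0105, 0.873 and 0.484, limma) and SNOWBALL_000105_st by 0.30, 0.57 and 0.14 (adjusted p = 0.17, 0.0216 and 0.553). The arrays of AIM and CCM overlapped for all 7 probe sets on each of days 4, 7 and 14, while 9.84%, 10.7% and 10.3% of tested probe sets had every AIM array above every CCM array. For the dim SNOWBALL_041813_st and SNOWBALL_043140_st, the differences lay between -0.03 and 0.08 in a fit without the filter.

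**Figure D3:**
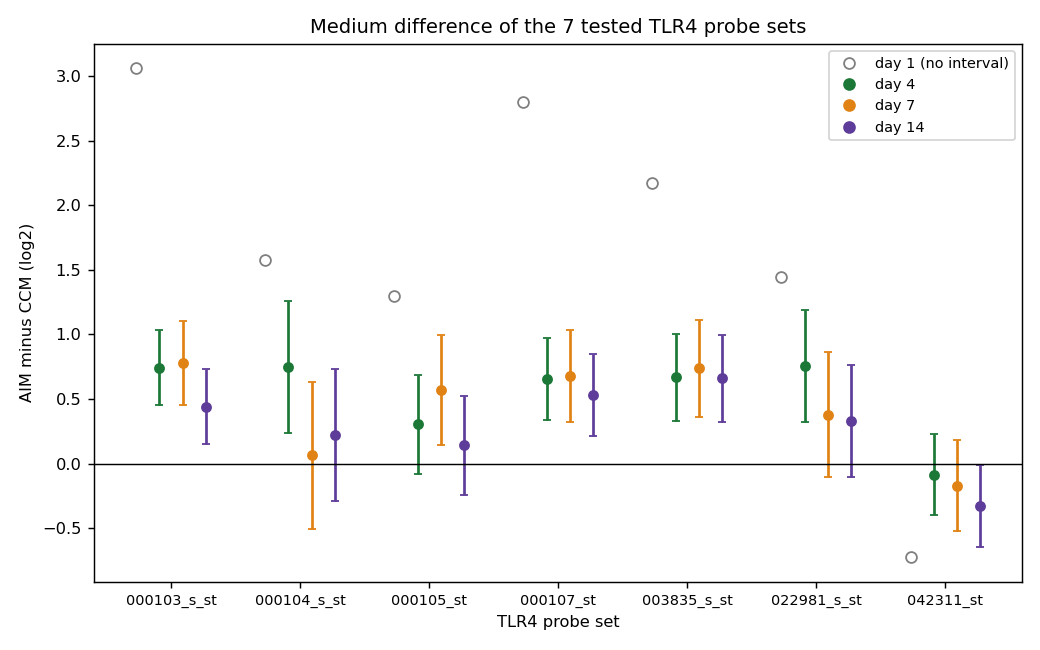
Fitted AIM minus CCM (y axis, log2) for each of the 7 tested TLR4 probe sets (x axis), with 1 colour a day, bars giving the 95% interval on days 4, 7 and 14, and open points without interval for day 1. The day 1 values, which chose the gene, run from -0.72 to 3.06, and SNOWBALL_042311_st is below 0 on every day.

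The discordant probe set SNOWBALL_042311_st went against the others between day 0 and day 1 in CCM. In CCM its lowest, median and highest arrays stood at 3.40, 3.85 and 4.34 on day 0 and at 4.93, 5.39 and 5.90 on day 1, without overlap, whereas the 6 other probe sets were lower on day 1. In CCM it then stood at medians of 4.77, 4.68 and 4.66 on days 4, 7 and 14. In AIM its medians on days 1, 4, 7 and 14 were 4.75, 4.63, 4.45 and 4.26, and the media overlapped on every day. None of its values lay below the background controls.

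SNOWBALL_042311_st differed between AIM and CCM by -0.09 on day 4, -0.17 on day 7 and -0.33 on day 14 (adjusted p = 0.656, 0.428 and 0.0711, limma). Of the 4 pools, 1 lay above 0 on day 4, 1 on day 7 and 0 on day 14. Without DL FP replicate 1 the day 4 value was 0.0046, so its direction on that day is not settled.

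Whether a probe set's medium difference departed from that of the reference was tested on days 4, 7 and 14 by a two-sided exact permutation test in which AIM and CCM were exchanged within pools, with Benjamini-Hochberg adjustment over the 18 tests and a threshold of 0.05. Since TLR4 was chosen in part for this discordant probe set, the tests on SNOWBALL_042311_st are not independent support for its discordance. It departed from the reference by -0.83 on day 4, -0.95 on day 7 and -0.77 on day 14 (adjusted p = 0.0278 on each day, exact permutation). SNOWBALL_000104_s_st departed by -0.72 on day 7 (adjusted p = 0.0417, exact permutation). The other 14 tests did not pass, the lowest adjusted p being 0.0556 for SNOWBALL_000105_st on day 4. At the threshold of 0.01 used for the limma tests no departure passed, the lowest adjusted p being 0.0278 (exact permutation). The smallest p the design allowed was 0.0015 on days 4 and 14 and 0.0046 on day 7. When a culture line was left out, the SNOWBALL_042311_st differences stayed between -1.03 and -0.67 but the design allowed no smaller p than 0.0046 to 0.0139, and 0 of 18 tests passed without any 1 of the DL lines. With the mean of the other probe sets in place of the reference 7 of 18 passed, and with all 72 arrays 2 of 18.

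Over time, the TLR4 probe sets rose in CCM between day 0 and day 4 and then showed no further change that passed. In limma 6 of 7 passed for day 4 minus day 0 in CCM, all as higher, against 10.3% of tested probe sets higher and 13.0% lower. The reference rose by 1.18 (adjusted p = 8.54e-08), SNOWBALL_000107_st by 1.22 (adjusted p = 2.66e-07), SNOWBALL_022981_s_st by 0.97, SNOWBALL_000105_st by 0.91 and SNOWBALL_003835_s_st by 0.88. SNOWBALL_042311_st also rose, by 0.96 (adjusted p = 1.57e-05), so that over this span it had the direction of the others. SNOWBALL_000104_s_st differed by 0.64 (adjusted p = 0.0636).

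From day 4 to day 7 and from day 7 to day 14, 0 of 7 probe sets passed in either medium by limma. Together with day 4 minus day 0 these made 35 tests, of which 6 passed and 8 had an unadjusted p under 0.05, against 7.39% of all such tests passing over all probe sets. The medium difference itself was also compared between days. For the reference it was 0.04 larger on day 7 than on day 4 (95% interval -0.40 to 0.47) and 0.30 smaller on day 14 than on day 4, as a difference of -0.30 (95% interval -0.71 to 0.11). In limma 0 of 14 such tests passed and 0 had an unadjusted p under 0.05, against 7.85% of all such tests passing over all probe sets.

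Between tissues, the TLR4 probe sets tended to lower levels in FP than in FS, but no single condition passed. FP minus FS was below 0 in 58 of 63 comparisons, 7 probe sets in 9 conditions, and ranged from -1.06 to 0.80. These comparisons are not independent, since the probe sets read the same RNA and the conditions reuse the same pools. The count is a description only. For the reference it was below 0 in 9 of 9 conditions, from -0.57 to -0.22. The lowest value, in CCM on day 1, rested on 1 DL FS array. On day 0 the AS pools went the other way, at 5.59 in FP and 5.32 in FS, and DL FP was 1 array. In limma 0 of 63 passed and 12 had an unadjusted p under 0.05, with a lowest adjusted p of 0.273, against 0.411% of all such tests passing over all probe sets.

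An average of FP minus FS over the 9 conditions was added after these values were seen. Its p-values and counts therefore restate them and are not independent support. For the reference it was -0.34 ± 0.0783 (SE, 95% interval -0.50 to -0.18, adjusted p = 0.00326, limma), for SNOWBALL_000107_st -0.35 (adjusted p = 0.00612) and for SNOWBALL_022981_s_st -0.51 (adjusted p = 0.00307). These 3 of 7 passed as lower in FP, against 2.03% of tested probe sets. The values of the other 4 lay between -0.42 and -0.15 and did not pass. The reference value lay between -0.41 and -0.26 when a culture line was left out. Its call was lost without 6 of the 8 lines: the adjusted p was 0.0184 without AS FP replicate 2, 0.0417 without AS FS replicate 1, 0.0743 without DL FP replicate 1, 0.0167 without DL FP replicate 2, 0.0109 without DL FS replicate 1 and 0.0738 without DL FS replicate 2.

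By breed, the FP minus FS average of the reference was -0.49 within DL (adjusted p = 0.0047, limma) and -0.19 within AS (adjusted p = 0.526), in fits where 1.21% and 0.949% of tested probe sets passed as lower in FP. Whether these averages differed was not tested. In AIM on day 7, for example, the pool means were 7.40 in AS FP against 7.69 in AS FS and 7.29 in DL FP against 7.87 in DL FS. A tissue was represented by 2 pools, so a tissue and the pools that stand for it cannot be told apart.

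**Figure D4:**
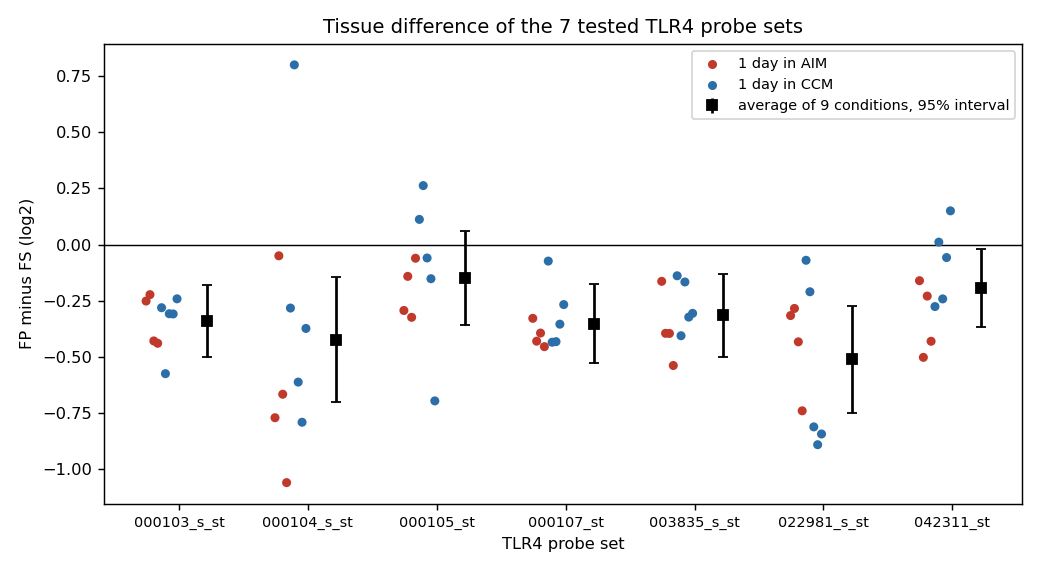
FP minus FS (y axis, log2) for each of the 7 tested TLR4 probe sets (x axis), with 1 coloured point for each of the 9 conditions by medium and a square with a 95% interval for their average. All 9 points of the reference SNOWBALL_000103_s_st lie below 0, between -0.57 and -0.22, and its average is -0.34.

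Between breeds, the levels lay on both sides of 0. AS minus DL ranged from -0.39 to 0.86 over 63 comparisons, of which 0 passed in limma and 4 had an unadjusted p under 0.05, with a lowest adjusted p of 0.0892, against 3.1% of all such tests passing over all probe sets. The average over conditions, also added after the values were seen, was 0.06 for the reference (95% interval -0.10 to 0.22, adjusted p = 0.635), and 0 of 7 probe sets passed in limma, against 18.3% of tested probe sets. The direction of this average turned without AS FP replicate 1, at -0.0041, and without AS FS replicate 1, at -0.0129.

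Breed and tissue were also tested for a part in the medium difference. In limma 0 of 28 tests of a breed difference in AIM minus CCM passed, with 0 at an unadjusted p under 0.05, against 0.397% over all probe sets. For tissue 0 of 28 passed, with 1 at an unadjusted p under 0.05, against 0.0382%. The breed differences ranged from -0.80 to 0.36 and the tissue differences from -1.57 to 0.63. With 2 cultures a pool, these tests do not show that the pools responded alike.

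The genes around TLR4 were taken as lists by role, with 1 probe set a gene, and are given as counts. From here on, rose and fell mean higher or lower in AIM than in CCM on the same day, not a change between days. The median AIM minus CCM over all tested probe sets was -0.02, -0.05 and -0.01 on days 4, 7 and 14. On these days 19.6%, 17.7% and 20.9% of all tested probe sets were higher in AIM and 29.5%, 27.4% and 27.7% lower. Among the other toll-like receptors, 3 of 9 were tested, TLR2, TLR3 and TLR6, and none was higher in AIM. TLR3, the endosomal receptor for double-stranded RNA, fell by 3.71 ± 0.210 on day 4 (adjusted p = 6.57e-18, limma), with AIM arrays at 4.35 to 6.19 and CCM arrays at 8.85 to 9.87, and the media were separate on days 4, 7 and 14. TLR2, which senses bacterial lipopeptides, fell by 1.13 on day 14 (adjusted p = 1.62e-05, limma), and its partner TLR6 by 0.50 (adjusted p = 0.00105). The CCM arrays of TLR2 on day 14 ran from 4.18 to 6.78 (median 4.83) and overlapped with AIM. On day 7 its media were separate.

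The genes that hand ligand to TLR4 went in different directions. Of 8 genes for ligand transfer and co-receptors, 6 were tested. On days 4, 7 and 14, 3, 2 and 3 were higher in AIM, against 19.6%, 17.7% and 20.9% of all tested probe sets. On each day 1 was lower, against 29.5%, 27.4% and 27.7%. The lower gene was LY96, the co-receptor without which TLR4 does not bind lipopolysaccharide. Its lowest, median and highest arrays on day 4 were 4.85, 5.20 and 5.51 in AIM and 6.05, 6.30 and 6.40 in CCM, and the media were separate on days 4, 7 and 14. The fitted difference was -1.12 ± 0.104 on day 4 (adjusted p = 7.12e-12, limma), -1.07 on day 7 and -0.98 on day 14. On day 1, when TLR4 differed most, LY96 differed by -0.02.

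CD14, which loads lipopolysaccharide onto the receptor, rose late. Its AIM minus CCM difference was 0.04 on day 4 and 0.19 on day 7, which did not pass, and 0.96 ± 0.108 on day 14 (adjusted p = 8.28e-10, limma), with AIM arrays at 6.69 to 7.98 and CCM arrays at 6.04 to 6.71. CD36, a fatty acid transporter and scavenger receptor that fat cells make in quantity, rose by 7.30 on day 4 (adjusted p = 4.81e-18), and SCARB1, the receptor for high-density lipoprotein, by 1.22 on day 7 (adjusted p = 1.66e-14). Of the 8 chaperones and trafficking factors listed for toll-like receptors, 5 had a probe set and 0 passed the filter, so none was tested.

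Among the TIR-domain adaptors, 4 of 5 were tested, 0 were higher and 2 were lower in AIM on each of the 3 days. Over all tested probe sets the shares on days 4, 7 and 14 were 19.6%, 17.7% and 20.9% higher and 29.5%, 27.4% and 27.7% lower. TICAM2, which links TLR4 to TICAM1, fell by 1.39 on day 4 (adjusted p = 2.75e-14, limma), and SARM1 by 0.55 on day 14. MYD88, the adaptor shared by most toll-like receptors, differed by 0.10, -0.38 and -0.21 on days 4, 7 and 14 (adjusted p = 0.789, 0.353 and 0.576), and TICAM1 by -0.20, -0.15 and -0.07, and neither passed.

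Further down the pathway, calls were mixed. Among all tested probe sets 19.6%, 17.7% and 20.9% were higher and 29.5%, 27.4% and 27.7% lower on days 4, 7 and 14. Of 20 kinases and signalling proteins, 10 were tested, and 0, 1 and 3 were higher and 5, 5 and 3 lower on days 4, 7 and 14. IRAK3, a member of its kinase family that damps the signal, was lower in AIM by 0.60 on day 4. TRAF3 and the kinase MAP2K6 were lower in AIM by 0.97 and 0.99 on day 7. On day 14 IRAK2, IRAK1 and CHUK were higher in AIM by 0.63, 0.53 and 0.46. Of 12 NF-kB, AP-1 and interferon regulatory factors, 9 were tested, with 0, 0 and 2 higher and 4, 3 and 3 lower. IRF1 was lower in AIM by 1.59 on day 4 (adjusted p = 1.70e-10, limma). On day 14 IRF3 and NFKB1 were lower in AIM by 0.59 and 0.55, while FOS and JUN were higher by 0.87 and 0.45.

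Of 16 genes listed here as inhibitors of the pathway, 11 were tested. Whether each of them inhibits it in these cells was not tested. By limma 4, 4 and 5 of these were higher and 0 lower on days 4, 7 and 14, and 7, 7 and 6 did not pass, with list medians of 0.16, 0.26 and 0.48. The shares of all tested probe sets were 19.6%, 17.7% and 20.9% higher and 29.5%, 27.4% and 27.7% lower. IRAK3, which also damps the signal, was counted with the kinases and fell by 0.60 on day 4. The count of 0 lower therefore holds for this list only. NFKBIA, which holds NF-kB in the cytoplasm, rose by 1.97 ± 0.124 on day 4 (adjusted p = 1.71e-16, limma), with AIM arrays at 8.64 to 9.09 and CCM arrays at 6.53 to 7.22. DUSP1, a phosphatase of MAP kinases, was 1.22 higher in AIM on day 14. Its AIM mean on that day was 9.93, below its day 0 mean of 11.23. The ubiquitin ligase PELI1 was 0.66 higher in AIM on day 4.

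Of 23 inflammatory target genes that TLR4 signalling is known to raise, 12 were tested, with 3, 3 and 2 higher and 4, 3 and 4 lower on days 4, 7 and 14, which is near the shares of all tested probe sets. CXCL8, a neutrophil chemokine, rose by 4.89 ± 0.188 on day 14 (adjusted p = 7.64e-23, limma), from a median of 2.89 in CCM to 7.85 in AIM. CXCL2 rose by 1.10 and SOD2 by 0.99 on day 4. In contrast, the monocyte chemokine CCL2 fell by 3.31 on day 4 (adjusted p = 4.51e-16), from a median of 9.21 in CCM to 6.12 in AIM. IL6 fell by 2.18 ± 0.382 on day 7 (adjusted p = 6.70e-06, limma), with AIM arrays at 4.38 to 6.26 and CCM arrays at 6.95 to 8.07, and LCN2 fell by 2.61 on that day.

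Of 11 genes for proteins described as endogenous TLR4 ligands, 10 were tested, with 3 higher on each day and 4, 5 and 5 lower. Over all tested probe sets the shares on days 4, 7 and 14 were 19.6%, 17.7% and 20.9% higher and 29.5%, 27.4% and 27.7% lower. S100A8 and S100A9, calcium-binding proteins that form a heterodimer, rose by 3.46 and 2.19 on day 14, and VCAN, a matrix proteoglycan, by 0.65 on day 4. LGALS3 fell by 2.41 on day 14 (adjusted p = 2.17e-25, limma), TNC by 1.11 on day 7 and DCN by 1.06 on day 14.

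**Figure D5:**
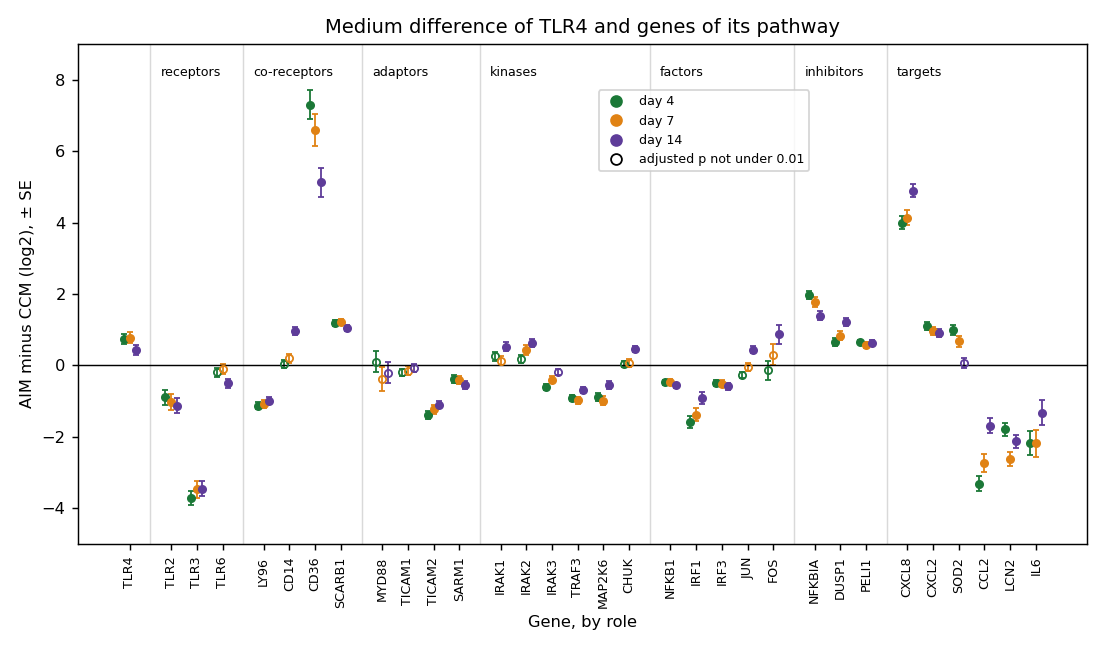
AIM minus CCM (y axis, log2, bars ± SE) for TLR4 on its reference probe set and for named genes of its pathway, grouped by role along the x axis, with 1 colour for each of days 4, 7 and 14 and open points where the adjusted p was not under 0.01. LY96 lies at -1.12 to -0.98 while TLR4 lies at 0.44 to 0.78.

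Markers of other cells were read beside these results. Fat cell markers were higher in AIM, 8 of 8 tested on each of days 4, 7 and 14, among them ADIPOQ by 6.76, FABP4 by 6.43 and LPL by 5.93 on day 4. Of 6 tested stromal markers 4, 4 and 3 were lower. Over all tested probe sets the shares on days 4, 7 and 14 were 19.6%, 17.7% and 20.9% higher and 29.5%, 27.4% and 27.7% lower. On day 14 THY1, VCAM1 and PDGFRA were lower in AIM than in CCM by 2.20, 0.88 and 0.73. NT5E lay below the background controls on 53 of 68 arrays. Of 3 tested endothelial markers 0 passed in limma on these days, and of the 10 on the list KDR and EMCN lay below background on 68 of 68 arrays and TEK on 66, while CDH5, VWF, TIE1, ROBO4 and CLDN5 lay below it on none. The log2 summed level of the list had medians of 7.49 to 7.71 in the 9 conditions.

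The macrophage list, read because macrophages carry TLR4, had a lower summed level in AIM than in CCM, given without a test, and this rested on CD86. Over 16 genes the log2 summed level had a median of 8.55 in AIM (8.40 to 8.91) and 9.10 in CCM (8.88 to 9.57) on day 4, 8.70 (8.64 to 9.01) and 9.21 (8.88 to 9.54) on day 7, and 8.59 (8.39 to 8.76) and 9.45 (9.13 to 10.55) on day 14. On day 1, when TLR4 was low in CCM, it was 8.63 (8.46 to 8.98) in AIM and 9.58 (9.05 to 9.83) in CCM. Without CD86, a co-stimulatory molecule whose median was 5.54 in AIM and 8.01 in CCM on day 4, the median of the summed level was higher in AIM on days 4, 7 and 14, at 8.38, 8.45 and 8.34 against 8.16, 8.26 and 8.15 in CCM, and on day 1 it was 8.17 against 8.15. Of the 16 genes, PTPRC lay below background on 67, CD163 on 66 and LYZ and MRC1 on 68 of 68 arrays, 4 others on some arrays, and 8, among them AIF1, ITGB2, TYROBP and C1QA, on none. Of 7 tested genes, 0, 1 and 1 were higher on days 4, 7 and 14, against 19.6%, 17.7% and 20.9% of all tested probe sets. On each day 1 was lower, against 29.5%, 27.4% and 27.7%. CD86 fell by 2.51 on day 4 while FCER1G rose by 0.68 on day 7. The part of these cells in the TLR4 levels was not tested. The CCM day 14 array of AS FP replicate 1 stood apart on 4 macrophage genes, singled out after their values were seen: C1QC at 9.14 against 7.00 for the next array, C1QA at 7.98 against 6.18, CD163 at 5.79 against 4.21 and PTPRC at 3.91 against 2.33. On the TLR4 reference probe set this array did not stand apart, at 7.42 against 7.39 for the AS FS replicate 1 array of the same condition. Without that whole culture line the day 14 difference of TLR4 was 0.50 (adjusted p = 0.00499, limma). That fit also drops the AIM arrays and other days of the line, so it does not single out this array.

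The genes whose level went most like that of TLR4 were found by Pearson correlation of the reference probe set with 1 probe set for each of 7555 other genes over the 36 group means, as a description with no p, since these means share pools, days and the arrays that chose the gene. The 10 highest were KLHL24, TMEM68, EBF1, NFIA, SESN1, PTPRG, MXI1, PLSCR4, TCP11L2 and REV3L, with r from 0.94 to 0.90. EBF1, a transcription factor of fat cell formation, had r = 0.93 and mean levels of 9.98 in CCM on day 0, 8.88 in CCM on day 1 and 10.17 in AIM on day 1. NFIA, another transcription factor active in fat cells, stood at 8.53, 7.60 and 8.67 in the same conditions, and the stress-responsive SESN1 at 5.79, 5.17 and 7.09. These genes shared the low point in CCM on day 1.

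The genes most opposed to TLR4 were CDA, ENC1 and KPNB1, each with r = -0.93. ENC1, a Kelch-family protein, stood at 7.10 in CCM on day 0, 8.30 in CCM on day 1 and 6.12 in AIM on day 1. KPNB1, the importin that carries cargo into the nucleus, stood at 10.13, 10.78 and 10.14, and CDA, cytidine deaminase, at 4.42, 5.17 and 3.96.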

How the data were processed

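RNA from 72 cultures had been hybridised to Affymetrix porcine Snowball arrays, and the authors deposited log2 levels from RMA summarisation and normalisation. The submitters' processing notes name GCOS 1.1.1. The build is not given in the sources used here. Gene names came from the platform annotation. Members, gene lists and tests were chosen with earlier results of these data known.

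From the deposited log2 values, 123 control probe sets were removed, and probe sets with an SD above 0.25 over all arrays and a level above the array median on at least 8 arrays were tested. A limma (3.58.1, R 4.3.3) fit of 36 group means took the culture line (breed, tissue, replicate) as a random block (correlation 0.0258). P-values were Benjamini-Hochberg adjusted over 18335 probe sets within each comparison, with a threshold of 0.01. Background was the mean of 69 control probe sets on each array (3.13 to 3.67). No counts underlie arrays, so their number limits precision. A gene was represented by its tested probe set with the highest mean. In each list, the named genes were up to 3 with the largest called changes in each direction, besides TLR3, LY96, CD14, MYD88 and TICAM1. The fit was tested on simulated data. Alternatives covered normalisation, filter, block, probe set choice, left-out arrays and culture lines.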

Additional observations from a re-analysis of the deposited data

Results flagged for a closer look

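On the reference probe set SNOWBALL_000103_s_st, the DL FS CCM day 0 replicate 2 array stood at 6.44, apart from the 6 other used day 0 arrays, which lay between 5.26 and 5.76. Its gap to the nearest array was 0.573 of the whole range of the group. This was 1 of 63 groups looked at, and chance sets apart about 1 group in 20.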

How the results depend on the processing

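The higher reference level of TLR4 in AIM passed on days 4 and 7 without each culture line, at 0.63 to 0.85 and 0.73 to 0.83. With all 72 arrays as labelled the day 7 difference was 0.60 (adjusted p = 0.0163) and the passing probe sets numbered 0 on days 7 and 14. The day 14 difference (0.44) missed the threshold with no filter (0.44, adjusted p = 0.0176), with array medians centred (0.43, 0.0102), with no replicate block (0.44, 0.0102), with the replicate block as a fixed term (0.44, 0.0106) and with 72 arrays (0.44, 0.0707). Without single lines it was 0.38 to 0.50 and the count of probe sets 1 to 3. Replicate numbers paired the cultures weakly at most: the 14 correlations of same-numbered arrays ran from 0.0004 to 0.25, and 7 were over 0.1. Departures from the reference numbered 7 against the mean of the others, 2 with 72 arrays and 0 to 4 without single lines. The FP minus FS average was -0.41 to -0.26 with 0 to 3 probe sets passing, and 4 passed with 72 arrays. The AS minus DL average was -0.0129 to 0.137. Directions turned for SNOWBALL_042311_st on day 4 without DL FP replicate 1 (0.0046, all lines -0.179 to 0.0046), SNOWBALL_000104_s_st on day 7 without DL FP replicate 2 (-0.148, all lines -0.148 to 0.275), SNOWBALL_000105_st on day 14 without AS FS replicate 1 (-0.0235, all lines -0.0235 to 0.306) and the AS minus DL average without AS FP replicate 1 (-0.0041) or AS FS replicate 1 (-0.0129). SNOWBALL_000104_s_st passed on day 4 with quantile normalisation (0.81) and SNOWBALL_000105_st on day 7 with quantile normalisation. The cause of these changes was not tested. Of 693 alternative values, 626 kept direction and side of the threshold. Signal near background limited the day 1 CCM values.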

Other observations

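The genes most like the discordant probe set SNOWBALL_042311_st, by correlation over the 36 group means, were RNF219 (r = 0.83), ZNF512 (0.79) and NVL (0.78). RNF219 stood at 6.05 in CCM on day 0, 6.88 in CCM on day 1 and 6.48 in AIM on day 1, and ZNF512 at 5.03, 5.99 and 5.81. The genes most opposed to it were ERRFI1 (r = -0.76), TMEM170B (-0.75) and MAP3K8 (-0.74). MAP3K8, a kinase that acts downstream of TLR4 on the ERK pathway, stood at 9.24 in CCM on day 0, 5.83 in CCM on day 1 and 6.71 in AIM on day 1. These correlations are descriptions with no p, and the genes were chosen after their values were seen.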
